A study of Mus musculus with 40 samples.

Results

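Potassium channels set the resting potential of a cell and repolarize it after excitation. Voltage-gated Kv channels open on depolarization, inward rectifier (Kir) channels pass current near the resting potential, and K2P channels carry a background leak. In oligodendrocyte precursor cells (OPCs), the dividing cells that give rise to myelinating oligodendrocytes, Kv channels of the Kv1 family have been linked to cell division and Kir4 channels to the negative resting potential of the maturing cell. H3K4me3, trimethylation of lysine 4 of histone H3, marks promoters that are active or poised, and H3K27me3, trimethylation of lysine 27, is deposited by Polycomb repressive complex PRC2 and marks repressed genes. A promoter with both marks is called bivalent, though in a culture of many cells marks of the same allele cannot be told apart from marks of different cells, nor fewer marked cells from less of the mark per cell. The H3.3 K27M oncohistone of diffuse midline glioma inhibits PRC2.

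The 43 autosomal potassium channel genes described here are a fixed list of Kv, Kir and K2P channel genes, chosen by name out of 20807 protein-coding autosomal genes of the annotation. They comprise 14 genes of the Kv1 to Kv4 families, 3 of Kv7, 8 of Kv10 to Kv12, 11 of Kir and 7 of K2P. For each gene, ChIP-seq peaks of both marks were read in promoters, taken as the stretch between 2000 bp before and 1000 bp after an annotated transcript start on mm10. The 43 genes have 132 such promoters, and 10 genes have 1. The covered share below is the percentage of the joined promoters of a gene that lay under peaks, so a gene with distant unmarked starts cannot reach 100%.

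OPC cultures came from litters of hGFAP-Cre;K27M mice (AMGFAP-Cre;K27M in the labels) on an FVB background, collected at postnatal day 5 to 7. Brainstem and dorsal telencephalon (cortex in the sample titles) were pooled by region and genotype, and OPCs were taken by immunopanning with an antibody against PDGFRa, so that 1 culture stands for several animals. In the K27M group the H3-3a allele with the mutation is switched on by hGFAP-Cre, which acts in embryonic neural stem and progenitor cells and their progeny, and the Control group holds cells without the mutation. All cultures were kept in proliferation medium and harvested without differentiation. Each mark was measured in 2 Control and 2 K27M brainstem cultures (numbers 59 and 61) and in 3 Control and 3 K27M telencephalon cultures (59, 60 and 61), which gives 20 libraries in 5 matched pairs of cultures. The study separated both regions from dissected brains, so brainstem and telencephalon cultures of the same number may share animals. The SDs and tests below treat the 5 pairs, which carry 3 culture numbers, as independent.

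All 5 OPC markers examined (Pdgfra, Cspg4, Sox10, Olig1 and Olig2) had a promoter H3K4me3 peak in every one of 10 libraries. None of them had a promoter H3K27me3 peak in any of the 10 libraries of that mark. The microglial gene Aif1 and the endothelial gene Pecam1 had neither mark in any library. The neuronal genes Rbfox3, Snap25 and Tubb3 had H3K4me3 in all 10 libraries, and Rbfox3 also had H3K27me3 in all 10. Snap25 and Tubb3 had H3K27me3 in 2 and 1 of 5 Control libraries and in no K27M library. These promoter marks alone therefore do not separate OPCs from neurons. Of the other markers, the astrocyte genes Aldh1l1 and Gfap, the microglial gene P2ry12 and the endothelial gene Cldn5 had H3K4me3 in 6, 6, 8 and 5 of 10 libraries, Aqp4 in 1 and Cx3cr1 in none. Aldh1l1, Gfap, P2ry12 and Cldn5 had H3K27me3 in 4, 3, 3 and 5 of 5 Control libraries, and in 0, 2, 0 and 5 of 5 K27M libraries. The part of other cells in the marks at channel genes was not tested. The deposited peak lists held 12715 to 64808 H3K27me3 peaks in Control and 4739 to 15753 in K27M libraries, and 20961 to 31200 H3K4me3 peaks over both genotypes. No read counts are in the lists, so the depth behind each value is unknown from them, and a promoter without a peak may hold signal under the caller's threshold. Telencephalon culture 59 stood apart with the fewest H3K27me3 peaks of either genotype and the lowest median H3K4me3 fold enrichment over input (3.57 in Control and 4.98 in K27M, against 6.55 to 13.8 elsewhere).

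3 promoters show the 3 behaviours that recur below: Kcnh7, whose H3K27me3 was present in every Control and in no K27M library; Kcnc4, covered with H3K27me3 in every library; and Kcnd2, with H3K4me3 and no H3K27me3 in any library. The sequences are RefSeq promoters (GRCm38.p6, 250 bp before to 50 bp after a transcript start) in the direction of transcription. Capitals mark CG, the dinucleotide of CpG islands, which reads the same on both strands.
Kcnh7, chr2:63184238-63184537, minus strand: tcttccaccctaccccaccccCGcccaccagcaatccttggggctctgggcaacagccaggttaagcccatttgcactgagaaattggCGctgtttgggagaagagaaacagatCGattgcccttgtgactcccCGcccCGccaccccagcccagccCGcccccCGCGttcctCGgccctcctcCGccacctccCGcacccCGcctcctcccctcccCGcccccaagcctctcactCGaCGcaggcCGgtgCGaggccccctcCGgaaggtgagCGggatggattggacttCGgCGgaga
Kcnc4, chr3:107458849-107459148, minus strand: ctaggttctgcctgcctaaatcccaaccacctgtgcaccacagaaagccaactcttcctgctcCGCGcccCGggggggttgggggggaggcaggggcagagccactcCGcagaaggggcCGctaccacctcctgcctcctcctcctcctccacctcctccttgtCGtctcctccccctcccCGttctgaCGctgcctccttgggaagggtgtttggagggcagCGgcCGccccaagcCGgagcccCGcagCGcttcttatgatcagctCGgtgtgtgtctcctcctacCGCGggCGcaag
Kcnd2, chr6:21215096-21215395, plus strand: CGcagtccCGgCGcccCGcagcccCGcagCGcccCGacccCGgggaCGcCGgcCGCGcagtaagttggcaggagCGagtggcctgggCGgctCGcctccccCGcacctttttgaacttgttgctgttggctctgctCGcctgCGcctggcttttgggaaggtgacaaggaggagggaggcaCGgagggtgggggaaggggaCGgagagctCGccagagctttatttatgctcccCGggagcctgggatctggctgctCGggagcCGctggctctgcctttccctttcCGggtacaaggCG
These windows hold 21, 17 and 26 CG. Of all 32851 promoters in the RefSeq table, 94.6% hold at least 1 CG, the median is 7, and 24.8%, 31.4% and 16.9% hold at least as many as those of Kcnh7, Kcnc4 and Kcnd2. An H3K27me3 peak overlapped this stretch in 4 of 10 libraries for Kcnh7, 10 of 10 for Kcnc4 and 0 of 10 for Kcnd2, and an H3K4me3 peak in 10, 8 and 10. The table held promoters of 35 of the 43 genes, with a median of 10 CG. Over the full promoters, the 43 genes had a median of 2.58 CpG per 100 bp, against 1.84 for all genes and 2.70 for all genes that were bivalent in the brainstem controls.

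To determine which promoter state the channel genes held without the mutation, consensus peaks shared by at least 2 Control cultures of a region were used. In brainstem controls, both marks were found at 19 of the 43 genes, H3K4me3 alone at 18, H3K27me3 alone at 2 and neither at 4. In telencephalon controls the numbers were 23, 18, 0 and 2. The bivalent state was held by 44.2% of the channel genes in the brainstem and 53.5% in the telencephalon, against 9.67% and 14.3% of all 20807 genes. All 19 genes that were bivalent in the brainstem were also bivalent in the telencephalon (9.15% of all genes were bivalent in both). A further 17 channel genes had H3K4me3 only in both regions, 39.5% against 49.2% of all genes. The telencephalon number rested on cultures 60 and 61: it was 23 without culture 59, and 8 without either of the others. With equal numbers of peaks in every library, 12 channel genes were bivalent in the brainstem and 16 in the telencephalon. The share of all genes that was bivalent was not determined with a culture left out or with equal numbers of peaks.

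By family, bivalent promoters were found in 5 of 14 Kv1 to Kv4 genes in the brainstem and 6 in the telencephalon, in 2 of 3 Kv7 genes in both, in 4 and 5 of 8 Kv10 to Kv12 genes, in 5 and 6 of 11 Kir genes, and in 3 and 4 of 7 K2P genes. The bivalent genes of both regions were Kcna1 and Kcna4 (Kv1), Kcnb2 (Kv2), Kcnc2 and Kcnc4 (Kv3, the channels of fast-spiking neurons), Kcnh1 (Kv10), Kcnh7 (Kv11), Kcnh3 and Kcnh8 (Kv12), Kcnj4 and Kcnj12 (Kir2), Kcnj3, Kcnj5 and Kcnj6 (Kir3, the channels opened by G proteins), Kcnq1 and Kcnq3 (Kv7), and Kcnk3, Kcnk4 and Kcnk13 (K2P). Both Kv4 genes, Kcnd2 and Kcnd3, which carry the rapidly inactivating A-type current, had H3K4me3 only. So did Kcnj10 and Kcnj16, the genes of the glial Kir4 and Kir5 channels.

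**Figure D1:**
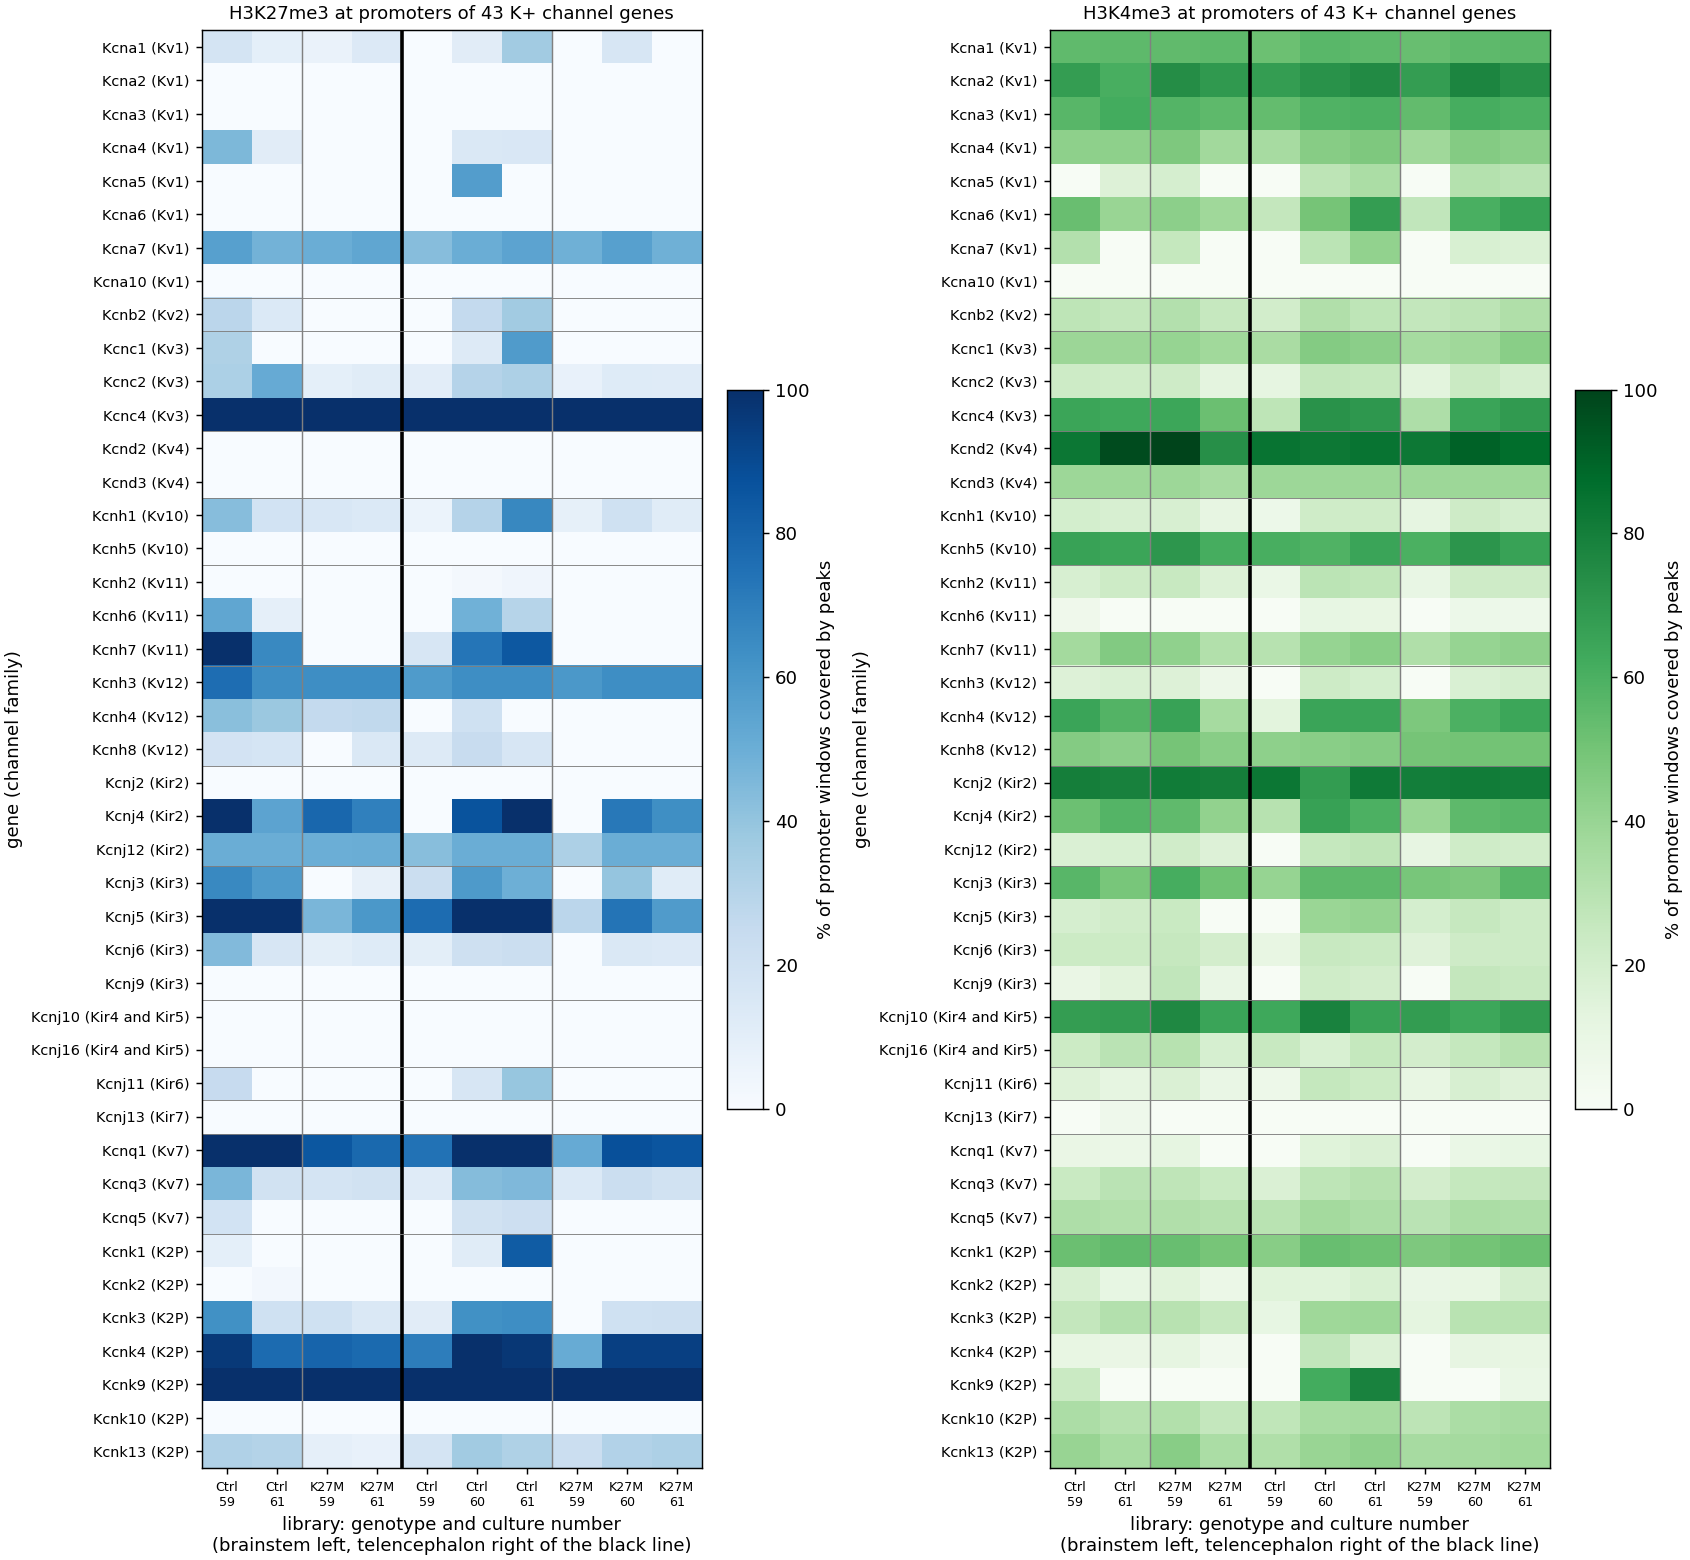
Percentage of the joined promoters of each of the 43 potassium channel genes (rows, by family) under H3K27me3 peaks (left) and H3K4me3 peaks (right) in each of 10 libraries per mark (columns, by region, genotype and culture). Kcnc4 and Kcnk9 are at 100% for H3K27me3 in every library, Kcnh7 is at 0 in every K27M library, and 13 genes are at 0 throughout, while 31 genes have H3K4me3 in every library.

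The control state differed between the regions for 5 channel genes (11.6%, against 8.49% of all genes), and this comparison had no test. A consensus peak needed both of 2 brainstem cultures but at least 2 of 3 telencephalon cultures, so the rule was stricter in the brainstem. With cultures 59 and 61 in both regions, 19 channel genes were bivalent in the brainstem and 8 in the telencephalon, the reverse order. Kcna5 (Kv1) was unmarked in the brainstem and had H3K4me3 only in the telencephalon. Its H3K4me3 covered share was 0% and 15.8% in the brainstem controls and 0%, 28.5% and 34.1% in the telencephalon controls, so the ranges overlapped. Kcna7 (Kv1) had H3K27me3 only in the brainstem and was bivalent in the telencephalon, with H3K4me3 over 31.3% and 0% against 0%, 28.7% and 41.5%. Kcnh6 (Kv11) was unmarked in the brainstem and bivalent in the telencephalon, although an H3K27me3 peak was present in both brainstem controls, over 53.5% and 8.92% of its promoters, without a consensus peak. In the telencephalon controls its H3K27me3 covered 0%, 48.6% and 29.9%. Kcnj11, the pore of the ATP-sensitive Kir6 channel, had H3K4me3 only in the brainstem (H3K27me3 over 24.3% and 0%) and was bivalent in the telencephalon (0%, 15.9% and 39.1%). Its neighbour Abcc8, the sulphonylurea receptor of the same channel, started under the same H3K27me3 peak in 1 Control library. Kcnk9 (K2P) had H3K27me3 over its whole promoter in every control and was called bivalent only in the telencephalon, where H3K4me3 covered 0%, 62.0% and 78.2%, against 23.5% and 0% in the brainstem. In each of the 5 genes, telencephalon control 59 lay at 0% for the mark that set the call apart, and the part of its low peak number was not tested.

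To ask whether the mutation changed the marks, each K27M culture was set against the Control culture of the same number. Fewer channel genes had a promoter H3K27me3 peak in K27M in all 5 pairs. The numbers were 27 in Control and 17 in K27M for brainstem culture 59, and 24 and 19 for brainstem culture 61. In the telencephalon they were 17 and 12 for culture 59, 29 and 17 for culture 60, and 27 and 16 for culture 61. The mean was 25.5 ± 2.12 (SD, n = 2) in brainstem controls and 18 ± 1.41 in brainstem K27M, and 24.3 ± 6.43 (SD, n = 3) and 15.0 ± 2.65 in the telencephalon. Over all genes, the share with a promoter H3K27me3 peak was also lower in K27M in every pair. It was 23.5% ± 8.24 in brainstem controls and 10.9% ± 0.676 in brainstem K27M, and 21.4% ± 9.8 and 9.53% ± 2.69 in the telencephalon, a larger fall in proportion than that of the channel genes. For the channel genes, the difference was −8.60 ± 3.36 genes (SD over 5 pairs). No channel gene gained a peak that the matched Control lacked. Of the channel genes marked in a Control culture, 66.1% ± 8.71 (SD, 5 pairs) were also marked in the matched K27M culture, against 47.9% ± 13 of all genes marked in Control. K27M libraries also held fewer H3K27me3 peaks genome-wide, and with equal numbers of peaks the difference was −1.60 ± 1.34 genes and the share kept was 85.0%. The share kept over all genes was not determined at that setting, so channel genes cannot be set against other genes there.

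**Figure D2:**
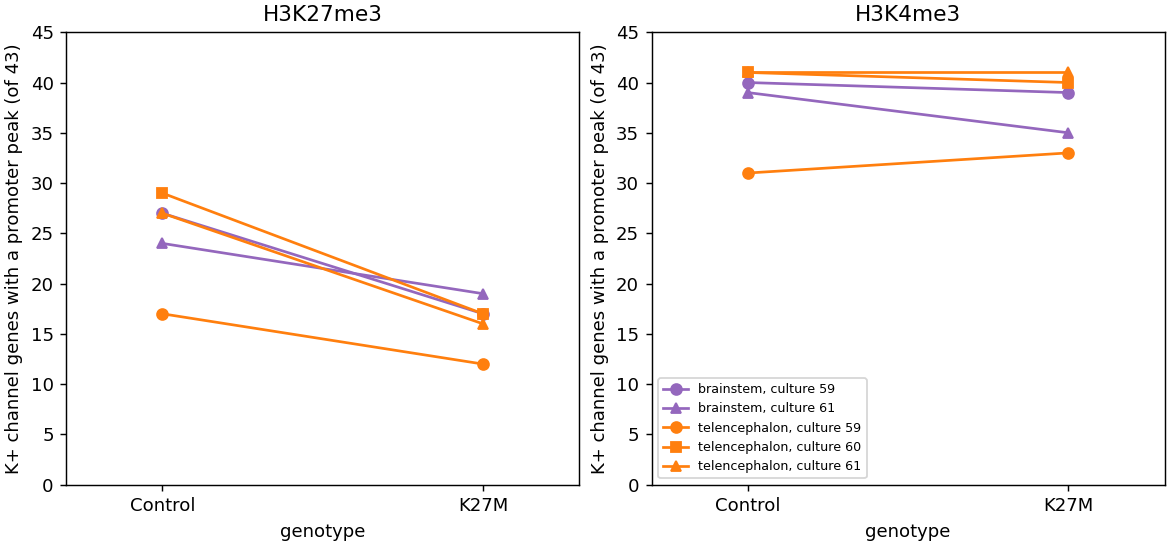
Number of the 43 potassium channel genes with a promoter peak of H3K27me3 (left) and H3K4me3 (right) in Control and K27M, with a line for each matched pair of cultures. The H3K27me3 lines all go down, by 5 to 12 genes, while the H3K4me3 numbers are 31 to 41 in Control and 33 to 41 in K27M.

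Across the 10 H3K27me3 libraries, the 43 genes fell in the main setting into 3 patterns of similar size and a remainder. A peak was present in all 10 libraries for 12 genes (27.9%, against 6.01% of all genes), in no library for 13 (30.2%, against 64.3%), and in at least 1 Control but no K27M library for 11 (25.6%, against 22.0%). The other 7 had peaks in both genotypes but not in every library: Kcna1, Kcnh4, Kcnh8, Kcnj3, Kcnj4, Kcnj6 and Kcnk3. Of the 30 channel genes with a peak in at least 1 Control library, 36.7% had none in K27M, against 61.9% of 7407 such genes. A peak in every K27M library was found for 40% of these channel genes, against 17.6% of all such genes. Both shares include genes marked in only some of the controls. Of the 17 genes with a peak in every Control library (39.5%, against 9.44% of all genes), 12 (70.6%) had a peak in every K27M library and 1 in none. Over all genes the shares were 63.6% and 8.45%, so the channel genes with a peak in every control were kept at a share near that of other such genes. The sizes of the 3 patterns depended on the setting. With equal numbers of peaks, a peak was present in all libraries for 12 genes, in no library for 21 and in Control only for 4. With peaks of at least 3-fold enrichment these numbers were 3, 18 and 6. Shares over all genes were not determined for these patterns at those settings.

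The 12 genes with H3K27me3 in every library were Kcna7 (Kv1), Kcnc2 and Kcnc4 (Kv3), Kcnh1 (Kv10), Kcnh3 (Kv12), Kcnj12 (Kir2), Kcnj5 (Kir3), Kcnq1 and Kcnq3 (Kv7), and Kcnk4, Kcnk9 and Kcnk13 (K2P). Kcnc4 and Kcnk9, which encodes an acid-sensitive leak channel, were covered over 100% of their promoter in all 10 libraries. Their peaks were 6.12 to 55.6 kb long in Control and 6.63 to 14.5 kb in K27M for Kcnc4, and 4.84 to 12.9 kb and 4.47 to 5.67 kb for Kcnk9. Both promoters are rich in CpG, with 6.5 and 6.8 per 100 bp, the highest values among the 43 genes. Kcnq1, a channel of heart and epithelia, had coverage of 100% and 100% in brainstem controls and 74.3%, 100% and 100% in telencephalon controls. In K27M the values were 84.8% and 78.0%, and 51.4%, 87.7% and 85.8%, lower in every pair. Kcna7 stayed between 43.2% and 56.2% in all libraries, Kcnh3 between 58.5% and 76.2% and Kcnj12, with 1 of its 2 promoters marked, between 32.8% and 50.0%. Kcnh1, the ether-a-go-go channel gene, had 43.3% and 18.5% in brainstem controls and 6.13%, 30.1% and 66.1% in telencephalon controls. In K27M it had 15.4% and 13.8%, and 8.45%, 20.3% and 11.4%, so the genotypes overlapped. The covered share of Kcnk4 ran from 70.3% to 100% in Control and from 50.9% to 94.1% in K27M. That of Kcnq3 ran from 12% to 46.2% and from 13.9% to 22.4%. Kcnk13 had 30.5% to 32% in brainstem controls and 7.34% to 8.66% in brainstem K27M, with 2 cultures each and no test. In the telencephalon Kcnk13 had 17.6% to 36.2% in Control and 22.4% to 32.7% in K27M, so the genotypes overlapped there.

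Fold enrichment over input was compared at these 12 genes as well. For the broad peaks of H3K27me3 it is given for a whole peak and is not a peak height, so it may depend on peak length. The part of peak length in the values below was not tested. At Kcnk9, the highest fold enrichment was 7.83 and 8.58 in brainstem controls and 21.6 and 21.1 in brainstem K27M. In the telencephalon it was 2.88, 12.8 and 6.73 in Control and 5.12, 20.6 and 21.4 in K27M. The difference was 10.2 ± 5.17 (SD, 5 pairs), higher in 5 of 5 pairs. Kcna7, Kcnc4 and Kcnh3 were also higher in K27M in 5 of 5 pairs, by 5.49 ± 3.81, 7.28 ± 5.50 and 8.26 ± 4.48. These 4 of 12 genes (33.3%) compare with 42.2% of the 1250 genes that had a peak in all 10 libraries. Fold enrichment is relative to each library's own input and was not scaled by the Drosophila spike-in, so it does not compare amounts of the mark between libraries. Ranked among all genes with a promoter peak in the same library, Kcnk9 was at the 71.2nd to 96.8th percentile in Control and the 74.7th to 93.7th in K27M. The rank was lower in K27M in 5 of 5 pairs for Kcna7, Kcnc2, Kcnj5 and Kcnq1, again 33.3%, against 51.1% of the 1250 genes. Fewer genes are ranked in K27M libraries. The longest peak was shorter in K27M in 5 of 5 pairs for 6 of the 12 genes (Kcnc2, Kcnh1, Kcnj5, Kcnq1, Kcnk9 and Kcnk13), 50.0% against 46.5%.

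**Figure D3:**
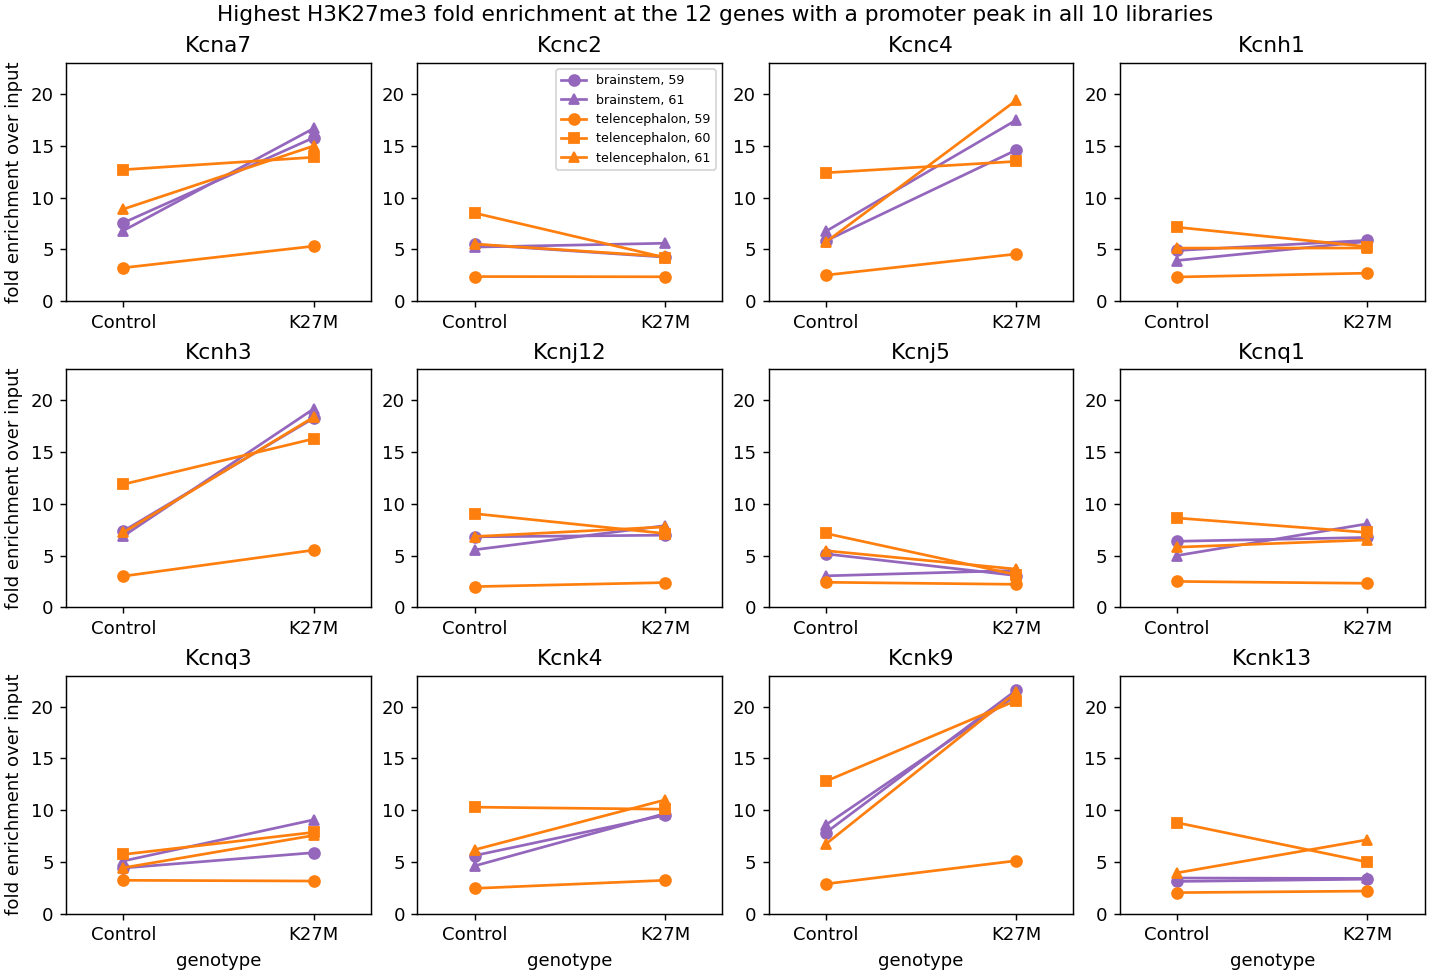
Highest H3K27me3 fold enrichment over input at the promoters of the 12 potassium channel genes with a peak in all 10 libraries, in Control and K27M, with a line for each matched pair. Kcna7, Kcnc4, Kcnh3 and Kcnk9 are higher in K27M in all 5 pairs, up to 21.6 for Kcnk9, while telencephalon culture 59 lies between 2.01 and 5.54 in every panel.

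H3K27me3 coverage was lower in K27M in 5 of 5 pairs for 8 channel genes (18.6%, against 4.84% of all genes): Kcnh7, Kcnj5, Kcnj3, Kcnk3, Kcnc2, Kcnq1, Kcnh8 and Kcnj6. Only a gene with a peak in every Control library can be lower in all pairs. Among such genes the shares were 47.1% of the 17 channel genes and 51.3% of 1965 genes, so the channel genes lay near other marked genes. No channel gene was higher in at least 4 of 5 pairs, which 0.168% of all genes were. With 5 pairs the exact sign-flip test cannot give a p below 0.062, and no gene of the 7422 tested passed an adjusted p of 0.05. When the matching of cultures was ignored and genotypes were permuted separately for brainstem and telencephalon, 593 genes had a p under 0.05, among them Kcnh7, Kcnh8 and Kcnj5 (each p = 0.017, exact permutation test, the smallest it can give) and Kcnj3 (p = 0.033, exact permutation test), and none passed after adjustment (smallest adjusted p = 0.269). With equal numbers of peaks per library, Kcnc2, Kcnj5 and Kcnq1 remained lower in 5 of 5 pairs (2.34% of all genes), out of 12 with a peak in every Control, against 36.5% of all such genes. With peaks of at least 3-fold enrichment, no channel gene did (0.509% of all genes), out of 3 with a peak in every Control, against 21.9% of all such genes.

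Kcnh7, an ether-a-go-go-related (Erg) channel gene of neurons, had the largest difference. Its covered share was 100% and 65.9% in brainstem controls and 16.2%, 73.2% and 84.7% in telencephalon controls, and it was 0% in all 5 K27M libraries. The mean difference was −68.0 ± 31.7 percentage points (SD, 5 pairs; exact sign-flip p = 0.062, adjusted p = 0.39), and the genotypes did not overlap. With equal numbers of peaks the difference was −36.9 points. Kcnh7 was the only channel gene with a peak in every Control and no K27M library (2.33%, against 0.798% of all genes). With a −log10 q of at least 3, with 3-fold enrichment or with equal numbers of peaks, 0 channel genes met this definition. Its fold enrichment in Control was modest, 2.39 to 4.12, and its H3K4me3 coverage was 30.3% to 45.8% in Control and 32% to 42.2% in K27M.

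The Kir3 family held 3 of the 8 genes. These channels hyperpolarize neurons and heart cells when G protein-coupled receptors are activated. Kcnj5 had 100% and 100% in brainstem controls and 76.8%, 100% and 100% in telencephalon controls. In K27M it had 46.4% and 59.6%, and 28.5%, 73.8% and 58.1%, so all K27M values lay under all Control values. The difference was −42.1 ± 10.3 points. With promoters of 1000 bp upstream it was −23.3 points, and Kcnj5 was then not lower in every pair. Kcnj3 had 66.0% and 58.4%, and 22.5%, 58.8% and 49.3%, in Control. In K27M it had 0% and 7.84%, and 0%, 39.8% and 11.4%, a difference of −39.2 ± 19.6 points with overlapping groups. Kcnj6 differed by −12.5 ± 12.4 points, from 10.1% to 44.3% in Control and from 0% to 14.3% in K27M. Without the pair of brainstem culture 59 its difference was −7.07 points, and in its most covered single promoter it was −24.1. The remaining Kir3 gene, Kcnj9, had no H3K27me3 in any library.

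The other genes lower in every pair came from Kv3, Kv7, Kv12 and K2P. Kcnk3, an acid-sensitive leak channel gene like Kcnk9, had 62.6% and 20.1% in brainstem controls and 11.3%, 62.7% and 63.9% in telencephalon controls. In K27M it had 20.3% and 14.6%, and 0%, 20.3% and 20.9%, a difference of −28.9 ± 18.8 points. The difference was −45.5 points over promoters of protein-coding transcripts, where Kcnk3 was not lower in every pair, and −14.5 with equal numbers of peaks or with peaks of at least 3-fold enrichment. Kcnc2 had 33.0% and 51.3%, and 10.5%, 30.1% and 32.8%, in Control. In K27M the peak was present in all 5 libraries but covered 9.13% and 11.5%, and 7.54%, 12.3% and 11.8%, a difference of −21.1 ± 13.2 points. It was −52.4 points in its most covered single promoter and −13.7 with equal numbers of peaks. Kcnq1 differed by −17.3 ± 4.79 points, and in its most covered single promoter by −0.913 points. Kcnh8 had 18.1% and 17.1%, and 13.1%, 23.8% and 16.2%, in Control. In K27M it had 0% and 14.6% in the brainstem and 0% in all 3 telencephalon cultures, a difference of −14.8 ± 7.85 points. Over promoters of protein-coding transcripts it was −29.5 points, and with peaks of at least 3-fold enrichment −8.89.

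**Figure D4:**
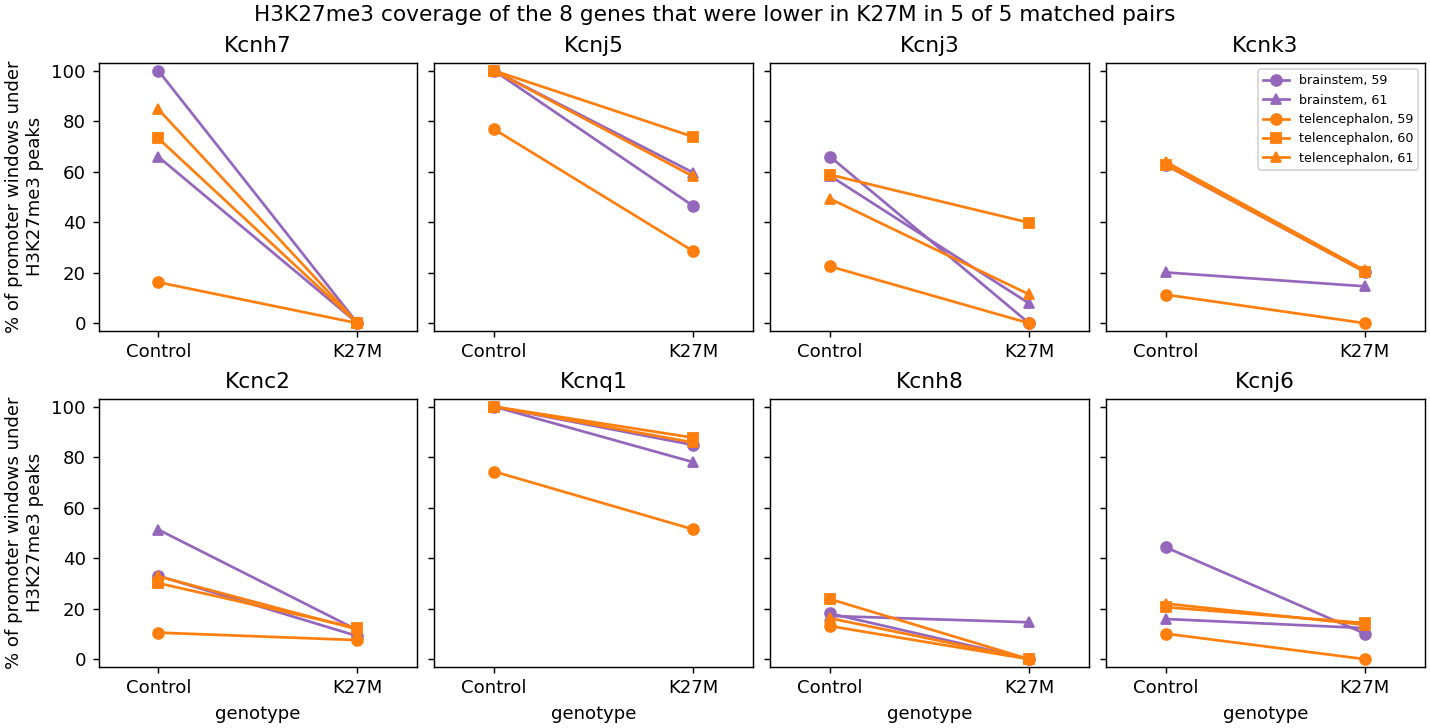
Percentage of the joined promoters under H3K27me3 peaks in Control and K27M for the 8 potassium channel genes that were lower in K27M in 5 of 5 matched pairs, with a line for each pair. Kcnh7 is at 0 in every K27M culture, and Kcnq1 stays above 50% in all.

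Besides Kcnh7, 10 genes had a peak in at least 1 Control and in no K27M library. Kcnb2 (Kv2, a delayed rectifier), Kcna4 (Kv1) and Kcnh6 (Kv11) had one in 4 of 5 Control libraries, all but telencephalon control 59. Kcnb2 was covered over 28.3% and 13.7%, and 0%, 25.5% and 36.0%, a difference of −20.7 ± 14.1 points that was lower in 4 of 5 pairs. Kcna4 was covered over 45.7% and 11%, and 0%, 14.4% and 15.1%. Kcnc1 (Kv3), Kcnj11 (Kir6), Kcnq5 (Kv7) and Kcnk1 (K2P) had a peak in 3 of 5 Control libraries, Kcnh2 (the cardiac Erg channel) in 2, and Kcna5 and Kcnk2 in 1. All 3 Kv11 genes were in this pattern, though Kcnh2 was barely marked. Its peaks in telencephalon controls 60 and 61 covered 2.34% and 3.94%, at a fold enrichment of 2.34 and 2.02. A peak in every Control is part of the definition of the 12 kept genes and not of these 11, which by itself sets their Control coverage apart, so the values that follow are a description. The mean Control coverage of the 11 genes was 0.509% to 68.0% (median 17.3%), and the highest Control fold enrichment was 2.34 to 6.31 (median 3.01). For the 12 genes kept in every library the corresponding values were 29.7% to 100% (median 57.7%) and 5.73 to 12.8 (median 8.93). The longest Control peak was 0.399 to 7.04 kb (median 2.36 kb) in the former and 3.91 to 55.6 kb (median 6.84 kb) in the latter. Over all genes with the same patterns, the median highest Control fold enrichment was 2.60 and 8.76. The median CpG content was 2.52 per 100 bp in the former and 2.51 in the latter. H3K4me3 coverage in Control had a median of 27% and 21.0%.

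Of the 7 genes with partial patterns, Kcnh4 (Kv12) had H3K27me3 in both brainstem genotypes and was rarely marked in the telencephalon. Its covered share was 42.3% and 38.2% in brainstem controls and 25.5% and 26.5% in brainstem K27M, against 0%, 20.1% and 0% in telencephalon controls and 0% in all 3 telencephalon K27M cultures. Kcnj4, the strong inward rectifier Kir2 gene of neurons, had 100% and 54.6%, and 0%, 86.6% and 100%, in Control and 78.7% and 69.0%, and 0%, 72.0% and 63.3%, in K27M. Kcna1 (Kv1) had 17.2% and 9.18%, and 0%, 11% and 36.1%, in Control and 6.52% and 13.6%, and 0%, 16.4% and 0%, in K27M. The genotypes overlapped within both regions for Kcnj4 and Kcna1. For Kcnh4 both brainstem K27M values lay under both brainstem Control values, with 2 cultures each and no test.

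H3K4me3 peaks were present at most channel genes in both genotypes. The numbers were 40 in Control and 39 in K27M for brainstem culture 59, 39 and 35 for brainstem culture 61, 31 and 33 for telencephalon culture 59, 41 and 40 for culture 60, and 41 and 41 for culture 61. Over all genes, 59.8% to 66.3% had a peak in Control and 61.5% to 65.1% in K27M libraries. For the channel genes, the difference was −0.800 ± 2.17 genes (SD, 5 pairs), within the spread of the pairs. A peak was present in all 10 libraries for 31 genes (72.1%, against 59.1% of all genes) and in none for 1, Kcna10 (2.33%, against 32.2%), a Kv1 gene of the inner ear and kidney that was unmarked throughout. The median difference in covered share over the 43 genes was −0.937 percentage points for H3K4me3 and −8.85 for H3K27me3, and the median over all 20807 genes was 0 for both. The zero for H3K27me3 follows from the 64.3% of genes without the mark in any library. Over genes with a peak in at least 1 library, the median for H3K27me3 was −13.5 points for 30 channel genes and −8.23 for 7422 genes. These sets differ: a peak in every Control was held by 17 of the 30 channel genes, against 1965 of 7407 genes with any Control peak. The medians over genes with a peak in every Control were not determined. For H3K4me3 the median was −0.974 for 42 channel genes and 0.613 for 14109 genes. Kcnh8 was the channel gene with more H3K4me3 in K27M in 5 of 5 pairs (2.33%, against 3.68% of all genes), by 4.38 ± 2.26 points on a Control mean of 44.3%. It was also among the genes with less H3K27me3 in every pair. Kcnq5 was the one with less H3K4me3 in every pair (0.476% of all genes), by −1.11 ± 0.718 points. Both had an exact sign-flip p of 0.062 and an adjusted p of 0.84.

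The remaining 11 genes had H3K4me3 in some libraries only. The widest difference was at Kcnk9. Its H3K4me3 covered 23.5% and 0% in brainstem controls and 0% in both brainstem K27M cultures, and 0%, 62.0% and 78.2% in telencephalon controls against 0%, 0% and 8.87% in telencephalon K27M. The difference was −31.0 ± 33.2 points, lower in the 3 pairs with any peak (exact sign-flip p = 0.25), while its H3K27me3 coverage was 100% in all libraries. Kcna7 had 31.3% and 0%, and 0%, 28.7% and 41.5%, in Control and 25.7% and 0%, and 0%, 17.6% and 16.7%, in K27M. Kcnj5 had 18.8% and 21.4%, and 0%, 39.4% and 40.8%, in Control and 24.0% and 0%, and 19.2%, 25.2% and 22.5%, in K27M. Kcnh3 had 16.0% and 17.3%, and 0%, 22.4% and 19.7%, in Control and 16.0% and 7.77%, and 0%, 17.5% and 19.3%, in K27M. Kcnq1 had 9.07% and 7.96%, and 0%, 14.8% and 17%, in Control and 12.1% and 0%, and 0%, 8.76% and 10.9%, in K27M. Kcnj13, the Kir7 gene of the retinal pigment epithelium and choroid plexus, had H3K4me3 only in brainstem control 61, over 5.98%. Kcna5, Kcnh6, Kcnj9, Kcnj12 and Kcnk4 completed the group. Telencephalon culture 59 lacked the peak in Control in all of these genes and in K27M in all but Kcnj5 and Kcnj12, and the part of its low enrichment was not tested.

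The 13 genes without H3K27me3 in any library came from Kv1, Kv4, Kv10, Kir and K2P. Kcnj10 had H3K4me3 over 63.3% to 78.5% of its promoter in Control and 64.0% to 75.8% in K27M, and Kcnj16, its partner in heteromeric channels, over 17.7% to 29.1% and 18.5% to 30.3%. Kcnj2 (Kir2) had 68.2% to 83.1% and 79.8% to 81.1%, and Kcnd2 (Kv4) had 82.8% to 97.4% and 73.1% to 100%. Of the Kv1 genes, Kcna2, Kcna3 and Kcna6 were in this set, with Control means of 68.7%, 58.2% and 47.1% for H3K4me3 and K27M means of 72.2%, 57.6% and 46.6%. The other Kv1 genes, apart from the unmarked Kcna10, had H3K27me3 in at least 1 Control library (Kcna1, Kcna4, Kcna5 and Kcna7). Kcnd3, Kcnh5, Kcnj9 and Kcnk10 followed the same pattern, and Kcna10 and Kcnj13 had little or no H3K4me3.

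Neighbouring channel genes did not always share a state. Kcna1, Kcna5 and Kcna6 lie within chr6:126532551-126740674, and Kcna1 was bivalent in both regions whereas Kcna6 had H3K4me3 only. Kcna2, Kcna3, Kcna10 and Kcnc4 lie within chr3:107036169-107459552. Kcnc4 was covered with H3K27me3 throughout, Kcna2 and Kcna3 had H3K4me3 only, and Kcna10 had no mark. Genes with several starts differed between them: 18 of the 43 had promoters in different states in at least 1 region. In Kcnh3, the first promoter was bivalent and the next had H3K27me3 only, and in Kcnb2, Kcnd3 and Kcnk10 a distant start had neither mark. Antisense or divergent transcripts start within the promoters of Kcnd3, Kcnh8, Kcnj3, Kcnq3, Kcnk2 and Kcnk3, and the marks there cannot be assigned to 1 of the 2 transcripts. H3K27me3 at Kcna7 lay under the same peak as the start of Ntf5 in 4 Control and 4 K27M libraries, and that at Kcnk4 under the same peak as Catsperz in 4 and 2.

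A further 47 potassium channel genes outside the list (31 pore-forming and 16 auxiliary) were read in the same way. Of these 47, 17 were bivalent in the brainstem controls and 24 in the telencephalon controls, against 19 and 23 of the 43 listed genes. The shares over all 20807 genes were 9.67% and 14.3%. H3K27me3 was present in all 10 libraries for 10 of the 47 and in none for 13 of the 47, against 6.01% and 64.3% of all genes. For another 13 of the 47 it was present in at least 1 Control and no K27M library, against 22.0% of all genes. H3K27me3 coverage was lower in 5 of 5 pairs for 10 of the 47, against 4.84% of all genes. That was 10 of the 17 with a peak in every Control, against 51.3% of all such genes. The median difference was −4.86 points over the 47 genes, against −8.85 over the 43 listed genes.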

How the data were processed

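Peak lists of both marks from 20 ChIP-seq libraries were analysed. Inputs were not used here. Alignment by the authors was to mm10 with bwa (0.7.17-r1188). They removed blacklisted regions and called narrow (H3K4me3) or broad (H3K27me3) peaks per library against its input with MACS2 (2.2.7.1). The deposited columns give an integer score, fold enrichment (a ratio), and the −log10 of p and q. The score was not used. Consensus peaks followed the study's rule, rewritten here (at least 2 cultures, stringent and weak p of 1e-10 and 1e-06 for H3K4me3, 1e-08 and 1e-04 for H3K27me3). Promoters came from GENCODE M21, whereas the study used another release. K27M and Control were compared over 5 matched cultures with an exact two-sided sign-flip test across all genes with a peak, and Benjamini-Hochberg adjustment, in Python 3.11.15 with numpy 2.4.6. Functions were tested on made-up data. The study describes the cultures as matched. Deviations from the group means of covered share correlated, across genes, with r = 0.48, 0.37 and 0.028 for H3K27me3 in cultures 59, 60 and 61 of the telencephalon. For H3K4me3 the values were 0.71, 0.39 and 0.47. The brainstem gave −0.11 for H3K27me3 and 0.023 for H3K4me3. Genes given with every value were those lower in 5 of 5 pairs, marked in all libraries, different between regions or with H3K4me3 in part of the libraries (in large classes, the leading 3 and at least 1 per family). The genes and lists were chosen with earlier results of these data known.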

Additional observations from a re-analysis of the deposited data

How the results depend on the processing

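Requiring a −log10 q of at least 3 gave 12 bivalent channel genes in brainstem controls and 3 genes lower in 5 of 5 pairs. The difference in genes with H3K27me3 between K27M and Control was then −5.20 ± 4.32 (SD, 5 pairs). Requiring 3-fold enrichment gave −2.40 ± 3.71 for this difference, within the spread of the pairs. The kept share was then 80.7%, and 0 genes were lower in 5 of 5 pairs. The difference in H3K4me3 changed sign, 1.60 ± 6.47 genes, also within the spread. With equal numbers of peaks per library, 12 genes were bivalent in brainstem controls, the H3K27me3 difference was −1.60, the kept share 85.0% and 3 genes were lower in 5 of 5 pairs. The cause was not tested. In telencephalon controls, 9 genes were bivalent when a peak was required in every culture and 8 with cultures 59 and 61 only, and leaving out each culture gave 8 to 23. In the brainstem this left 1 culture and no consensus. Leaving out each pair gave −9.50 to −7.75 for the H3K27me3 difference, −1.50 to 0 for H3K4me3, 62.9% to 68.0% for the kept share and 8 to 12 genes lower in every pair. Without the replicate block, that is with labels permuted within regions in place of matched cultures, 4 channel genes had an unadjusted p under 0.05 for H3K27me3 and 1 for H3K4me3 (Kcnh8), against 0 in the matched test, where no p can pass, and none after adjustment. Crossing the brainstem pairs, added after the data were seen, left 7 genes lower in 5 of 5 pairs. Other windows, overlaps and transcripts moved none of these counts by over 1.5 times, except the H3K4me3 difference. That was −0.2 genes with at least 500 bp of overlap, against −0.8 in the main setting. Kcnj5 left the genes lower in 5 of 5 pairs with 1000 bp upstream (−23.3 points against −42.1), and Kcnk3 left them with protein-coding transcripts. No difference in coverage of the 8 genes changed sign. For the bivalent counts and kept shares under these other settings, the shares over all genes were not determined. Depth is unknown, so weak marks may be missed in libraries with few peaks.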
